A study of Mus musculus with 6 samples.

Results

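Transcripts of 9 blood cytokine receptor genes were followed in mouse fetal liver cells, out of 53801 genes in the count table. They were taken by name: Epor, Csf1r, Csf2ra, Csf2rb, Csf2rb2, Il3ra, Il6ra, Il7r and Il1rl1. All 9 were found, and all 9 exceeded the filter on low counts in each of 6 libraries. The 3 libraries of the first group carried a doxycycline-inducible Arid3a-FLAG transgene, and the 3 of the second an inducible transgene that the labels call LUC. Every sample shared the rest: fetal liver cells of stage E12.5-13.5, the B6J.129(Cg) background with the Fezh allele tm1.1 of Gt(ROSA)26Sor, which carries cas9* and EGFP behind the CAG promoter, the transgenes sgGata1 and miR-125b, and doxycycline at 1 μg/mL for 48 h. The titles call the cells Gata1s, after the short form of the blood factor GATA1. Cells in both groups therefore carried the Gata1 guide and the microRNA, and the comparison asked what induced Arid3a, a DNA-binding factor, changed on top of them. The labels do not say whether the cells were sorted, cloned or pooled, or whether replicates were grown separately. The p-values therefore reflect only library-to-library spread, which could be technical.

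Cytokine receptors let blood progenitors sense growth factors. Most class I receptors have no enzyme of their own: ligand binding brings their chains together, bound JAK kinases are activated, and STAT factors such as STAT5 carry the signal to the nucleus. Specificity often lies in an alpha chain, while a beta chain shared by several receptors does the signalling. Among the 9 genes, Epor encodes the erythropoietin receptor of red cell precursors. Il3ra and Csf2ra encode the alpha chains for interleukin 3 and GM-CSF. Csf2rb encodes the common beta chain, which serves the interleukin 3, GM-CSF and interleukin 5 receptors, and Csf2rb2 a mouse-specific beta chain for interleukin 3. Il7r is the alpha chain for interleukin 7 and, with Crlf2, for TSLP. Il6ra binds interleukin 6 and signals through Il6st. Of the other receptors, Il1rl1 belongs to the interleukin 1 receptor family and binds interleukin 33 on mast cells and basophils. Csf1r is a receptor tyrosine kinase of macrophages with the ligands CSF1 and IL-34.

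Total counts ran from 15730908 to 17014650 in the Arid3a-FLAG libraries and from 16605860 to 18249053 in the LUC libraries. The construct had 2758 to 3348 counts with Arid3a-FLAG and 0 in each LUC library, while the endogenous Arid3a gene had a log2 fold change of -0.01 (adjusted p = 0.977). The first principal component of log2 CPM, read counts scaled to a common library size, held 45.3% of the variance and separated the groups. LUC library 2 stood apart on the second, with 24.0%. Megakaryocyte transcripts were present. Itga2b, a chain of the platelet fibrinogen receptor, stood at 1961 to 2178 CPM with Arid3a-FLAG and 1608 to 1919 CPM with LUC. Over the 6 libraries, the 10 listed markers ranged from Treml1, at 2.11 to 3.91 CPM, to Pf4, at 2971 to 4984 CPM. Of 10 mast cell and basophil markers, 1 averaged under 1 CPM, while Fcer1a had 257.4 to 859.7 CPM and Cpa3 276.5 to 651.1 CPM. These levels do not name a single cell type. Of 4 hepatocyte markers, 3 averaged under 1 CPM, among them Alb at no more than 0.131 CPM, while Afp had 15.7 to 25.9 CPM. Of 10 erythroid markers, 3 averaged under 1 CPM. The mature red cell transcript Slc4a1 had 0 counts in all 6 libraries, but the globin transcript Hbb-bs had 12.4 to 33.5 CPM.

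With Arid3a-FLAG, Csf1r rose, Il3ra and Il7r fell, and the other 6 receptors did not pass the threshold. A call needed an adjusted p under 0.05 in edgeR's quasi-likelihood test over 13631 tested genes, of which 7.29% passed, 3.43% higher and 3.87% lower. The median log2 fold change of the 9 was 0.16, against -0.03 over all tested genes. The libraries of the groups did not overlap for 4 of the 9 receptors (33.1% of all tested genes). These were Epor and Csf1r, higher with Arid3a-FLAG, and Il3ra and Il7r, lower.

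**Figure D1:**
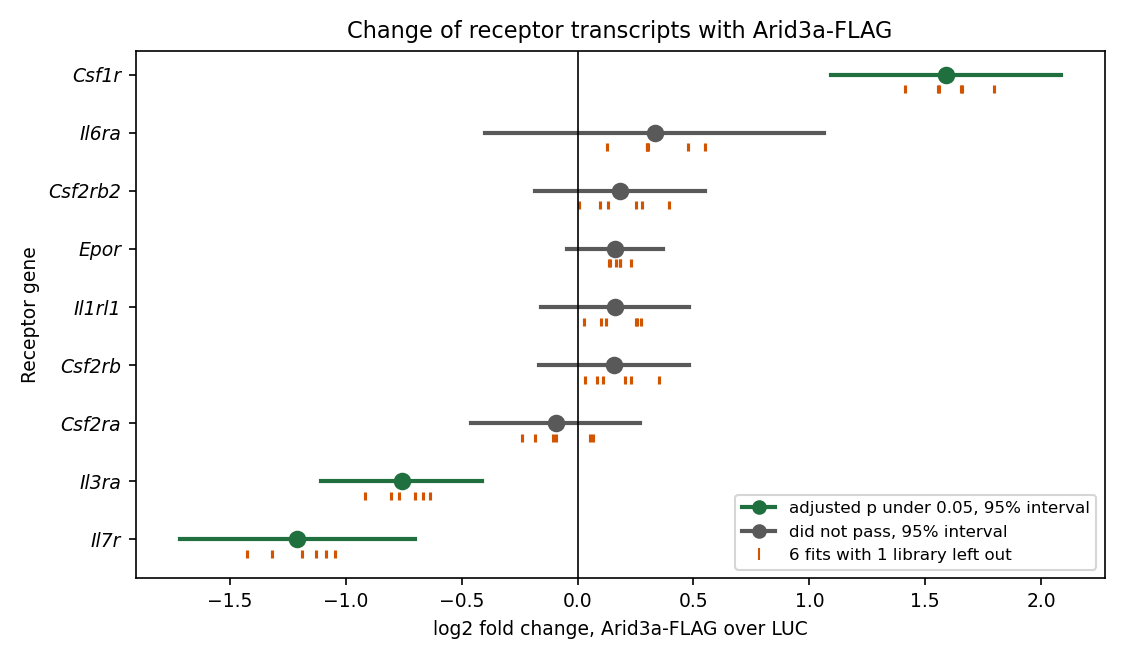
Log2 fold change of each receptor transcript, Arid3a-FLAG over LUC, with its 95% interval (large points and lines) and the values from 6 fits that each left out 1 library (small ticks). Csf1r lies at 1.59, Il3ra at -0.76 and Il7r at -1.21, and the intervals of the other 6 receptors include 0.

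Levels spanned a wide range when set per kilobase of exon. Csf2rb2 was highest, at 66.0 ± 13.4 CPM per kb with Arid3a-FLAG and 58.2 ± 12.1 CPM per kb with LUC (SD, n = 3 each). Csf2rb came next, at 63.6 ± 9.24 and 57.0 ± 10.7 CPM per kb in the same groups, and the pair differed by less than the spread between libraries. Over all 6 libraries, 93.1% of tested genes had a lower mean level than Csf2rb2 and 1.86% a lower one than Il6ra. Il1rl1 followed at 47.5 ± 5.54 CPM per kb with Arid3a-FLAG and 42.5 ± 7.97 CPM per kb with LUC, below every Csf2rb value of the same group. Epor averaged 27.8 ± 0.815 CPM per kb with Arid3a-FLAG and 24.9 ± 1.85 CPM per kb with LUC. Csf2ra had 11.1 ± 2.29 and 11.9 ± 2.03 CPM per kb, and Il3ra 4.34 ± 0.793 and 7.35 ± 0.98 CPM per kb, in that order of groups. The order of Csf1r and Il7r differed between the groups. With Arid3a-FLAG, Csf1r (1.24 to 1.44 CPM per kb) stood above Il7r (0.573 to 0.889), and with LUC, Csf1r (0.320 to 0.552) stood below Il7r (1.30 to 1.88). Il6ra was lowest, at 0.166 ± 0.0486 CPM per kb with Arid3a-FLAG and 0.130 ± 0.0169 CPM per kb with LUC.

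**Figure D2:**
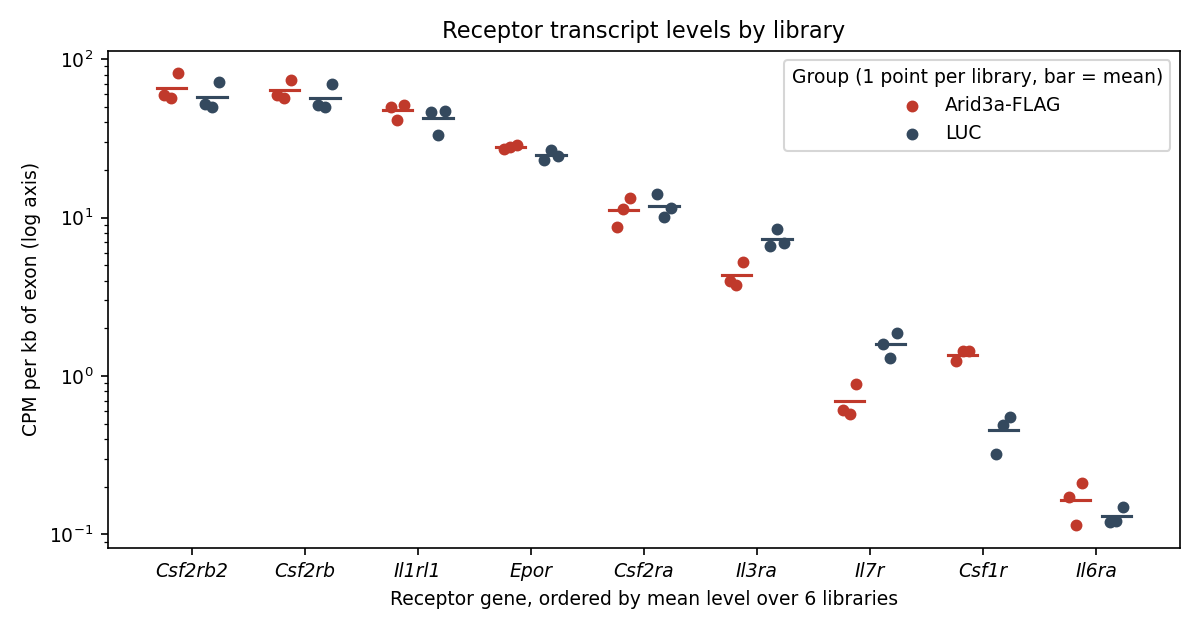
Transcript level of the 9 receptor genes in CPM per kb of exon on a log axis, with 1 point per library and a bar at the mean of each group of 3. Csf2rb2 and Csf2rb lead at about the same level, and Csf1r and Il7r stand in opposite order in the groups.

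Csf1r, the macrophage growth factor receptor, gave the largest fold change of the 9 (ENSMUSG00000024621, chromosome 18, 61100598 to 61132149, plus strand, mm10). It had 115, 142 and 132 counts with Arid3a-FLAG, or 7.14, 8.24 and 8.29 CPM. The LUC libraries had 32, 43 and 59 counts, or 1.85, 2.81 and 3.18 CPM. Every Arid3a-FLAG library was above every LUC library. Csf1r was 3.01-fold higher with Arid3a-FLAG. On the log2 scale this was 1.59 with an SE of 0.22 and a 95% interval of 1.10 to 2.08 (adjusted p = 0.0030, n = 3 each). The call held in all 6 fits with 1 library left out, with log2 fold changes of 1.41 to 1.80. In bulk samples such as these, fewer or more cells of a type and less or more RNA per cell cannot be told apart. A list of 12 macrophage and monocyte markers was set beside Csf1r. Of its 7 tested genes, 0 passed in edgeR, against 7.29% of all tested genes. With 7 genes this is near that share and cannot show whether the list moved. At an unadjusted p under 0.05 1 was lower, DESeq2 called 1 lower, and 0 passed in limma-voom. The part of such cells in the rise of Csf1r was not tested. The median log2 fold change of the 7 was 0.18, against -0.03 over all tested genes. Single genes ran from -1.15 for Ccr2 to 0.59 for Itgam. The summed level of the list was 26.0 to 33.7 CPM with Arid3a-FLAG and 24.6 to 28.3 CPM with LUC. The complement genes C1qa and C1qb and the surface markers Cd14, Mpeg1, Mrc1 and Ly6c2 averaged under 1 CPM.

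The value of Csf1r is uncertain for another reason. Hmgxb3 overlaps it on the opposite strand and shares 873 of its 5774 exon bases, which is 15.1%. Without a stated strand, reads from those bases cannot be assigned to either gene with certainty. Hmgxb3 was at 58.7, 56.0 and 59.6 CPM with Arid3a-FLAG and at 46.0, 39.9 and 50.8 CPM with LUC. It was higher in every Arid3a-FLAG library without passing the threshold (log2 fold change 0.35, SE 0.11, adjusted p = 0.073). Its part in the Csf1r value was not tested.

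Il34, whose product is a ligand of the Csf1r receptor, also rose. It had 17.4, 16.7 and 15.1 CPM with Arid3a-FLAG and 7.28, 6.997 and 5.83 CPM with LUC, with no overlap. Its log2 fold change was 1.29 (SE 0.15, adjusted p = 0.00088), and the call held in all 6 fits with 1 library left out. Il34 shares 75 and 22 of its 1959 exon bases with the antisense entries Gm15895 and Gm15894, so its value is uncertain too. Csf1, the other ligand, had 15.3, 9.12 and 16.5 CPM with Arid3a-FLAG and 7.92, 4.32 and 12.0 CPM with LUC. Its groups overlapped, and it did not pass (log2 fold change 0.74, SE 0.32, adjusted p = 0.178).

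Il3ra, the interleukin 3 alpha chain, fell (ENSMUSG00000068758, chromosome 14, 14346275 to 14356011, plus strand). It had 191, 193 and 248 counts with Arid3a-FLAG, or 11.9, 11.2 and 15.6 CPM, and 341, 384 and 382 counts with LUC, or 19.7, 25.1 and 20.6 CPM. Il3ra shares 46 of its 2967 exon bases with the antisense entry Gm48860, which had at most 5 counts. Each LUC library was above each Arid3a-FLAG library, and LUC library 2, which stood apart, was the highest. The fall measured -0.76 on the log2 scale, with an SE of 0.16 and a 95% interval of -1.11 to -0.41 (adjusted p = 0.019). Without LUC library 2 it was -0.64 (adjusted p = 0.013). Leaving out Arid3a-FLAG library 1 or library 2 ended the call, at an adjusted p of 0.104 and 0.097. The list of mast cells and basophils, cells that use interleukin 3, had 9 tested markers. Of these, Ms4a2, Fcer1a and Mcpt8 fell (3.87% of all tested genes fell), 0 rose and 6 did not pass. At an unadjusted p under 0.05, 5 fell and 0 rose, and DESeq2 and limma-voom each called 4 falls and 0 rises. The median log2 fold change of the 9 was -0.50, against -0.03 over all tested genes. Of the 6 that did not pass, Hdc, Prss34 and Gata2 had log2 fold changes above 0, at 0.02, 0.18 and 0.10. The list of 10 summed to 2043 to 2736 CPM with Arid3a-FLAG and 2892 to 3424 CPM with LUC. The part of these markers in the fall of Il3ra was not tested.

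The beta chains that pair with Il3ra did not follow it past the threshold. Csf2rb (ENSMUSG00000071713, chromosome 15, 78325752 to 78353847, plus strand) had 432.3, 416.0 and 539.8 CPM with Arid3a-FLAG and 375.2, 364.6 and 504.8 CPM with LUC. Csf2rb2 (ENSMUSG00000071714, chromosome 15, 78282507 to 78305721, minus strand) had 282.8, 270.0 and 386.0 CPM with Arid3a-FLAG and 247.8, 237.5 and 341.6 CPM with LUC. In both genes library 3 was the highest of its group, and the groups overlapped. The log2 fold changes were 0.16 (95% interval -0.17 to 0.48, adjusted p = 0.534) for Csf2rb and 0.18 (-0.19 to 0.55, adjusted p = 0.523) for Csf2rb2. Those upper bounds correspond to rises of 1.40-fold and 1.47-fold, so a modest rise was not excluded by these libraries.

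Csf2rb and Csf2rb2 are near-identical copies, and counting may have split or lost their reads. Over 2628 aligned coding bases they shared 95.2%, and the longest identical run was 242 bases. Of all 100-base windows of their transcripts, 4.63% for Csf2rb and 6.82% for Csf2rb2 also stood in the other gene. At 50 bases the shares, counting microRNA entries within the pair, were 12.3% and 18.9%. The sources used here do not state the read length. The 100-base coding stretch in which the pair differs most is printed to show what a read had to tell apart. It comes from GENCODE transcripts on GRCm38, coding bases 314 to 413 of Csf2rb and 317 to 416 of Csf2rb2, in the direction of each gene. Capitals mark the 17 differing bases.
Csf2rb: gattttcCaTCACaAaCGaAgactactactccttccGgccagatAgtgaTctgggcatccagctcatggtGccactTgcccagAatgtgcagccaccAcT
Csf2rb2: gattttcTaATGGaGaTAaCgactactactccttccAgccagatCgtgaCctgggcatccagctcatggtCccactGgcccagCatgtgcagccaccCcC

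Summing the pair into 1 row does not depend on how reads were split between them, but it does not recover reads that counting may have lost. The sum was 715.1, 686.0 and 925.8 CPM with Arid3a-FLAG and 623.0, 602.1 and 846.4 CPM with LUC, and gave 0.17 in log2 units, with an SE of 0.16 and a 95% interval of -0.18 to 0.52 (adjusted p = 0.537). Csf2rb2 took 39.5%, 39.4% and 41.7% of the counts of the pair with Arid3a-FLAG and 39.8%, 39.4% and 40.4% with LUC. The mean shares differed by 0.340 percentage points, less than the spread between libraries (two-sided exact permutation p = 0.900, and 0.1 is the smallest p that 3 against 3 allows).

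Csf2ra, the GM-CSF alpha chain, had no clear direction (ENSMUSG00000059326, chromosome 19, 61223957 to 61228429, minus strand). It had 25.1, 32.5 and 38.2 CPM with Arid3a-FLAG and 40.4, 28.9 and 33.0 CPM with LUC. The groups overlapped, the log2 fold change was -0.09 (SE 0.17, 95% interval -0.46 to 0.27, adjusted p = 0.756), and its sign turned without Arid3a-FLAG library 1 or LUC library 1. Set per kilobase, the summed beta chains outnumbered Il3ra by 29.8, 30.2 and 29.7 times with Arid3a-FLAG and by 15.6, 11.8 and 20.4 times with LUC. These ratios did not overlap between the groups, and the SD was 0.295 with Arid3a-FLAG and 4.27 with LUC (n = 3 each). For the log2 of Il3ra over the beta chains the means were -4.90 with Arid3a-FLAG and -3.96 with LUC, a difference of -0.94 (two-sided exact permutation p = 0.1, the smallest possible). The summed beta chains outnumbered Csf2ra by 13.6, 10.1 and 11.7 times with Arid3a-FLAG and by 7.38, 9.95 and 12.3 times with LUC, with overlap (exact permutation p = 0.400 on the log2 scale). That sum includes Csf2rb2, a chain for interleukin 3, so it overstates the partner chain of Csf2ra. Csf2rb alone was not set against Csf2ra. The level of Il3ra over Csf2ra, also per kilobase, averaged -1.35 on the log2 scale with Arid3a-FLAG and -0.69 with LUC, without overlap (exact permutation p = 0.1). Il5ra, the alpha chain that would pair with Csf2rb for interleukin 5, stayed under 1 CPM on average.

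**Figure D3:**
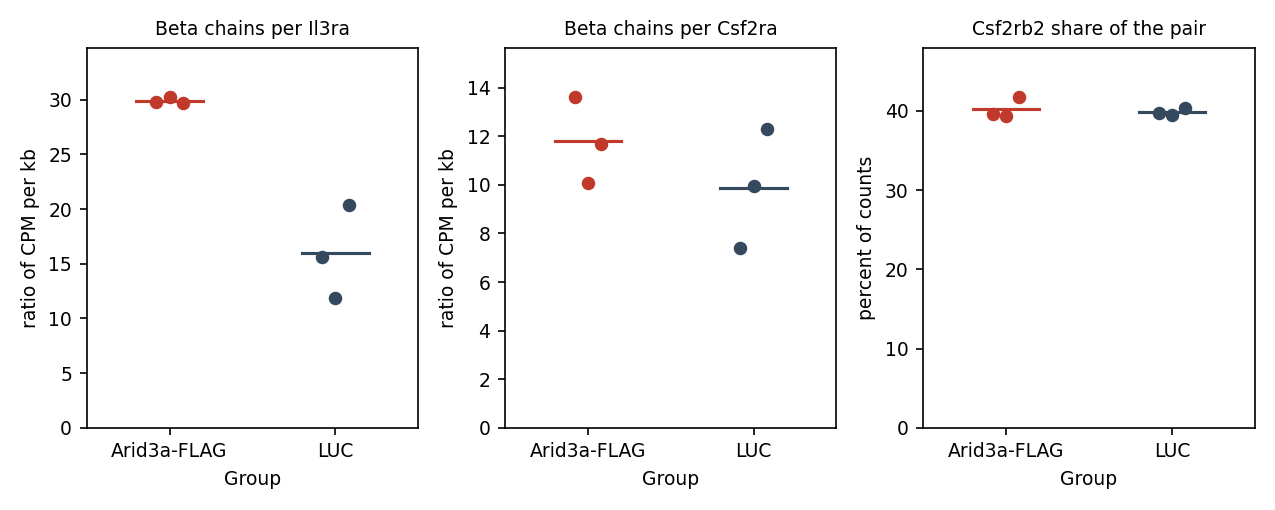
Ratio of summed Csf2rb and Csf2rb2 to Il3ra and to Csf2ra (CPM per kb, left and middle) and the Csf2rb2 percentage of the counts of the pair (right), with 1 point per library and a bar at the group mean. The beta chains per Il3ra lie at 29.7 to 30.2 with Arid3a-FLAG and 11.8 to 20.4 with LUC, and the other panels overlap.

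Il7r, the interleukin 7 alpha chain of lymphoid progenitors, fell most (ENSMUSG00000003882, chromosome 15, 9505788 to 9530176, minus strand). It had 46, 46 and 66 counts with Arid3a-FLAG, or 2.86, 2.67 and 4.14 CPM, and 129, 93 and 162 counts with LUC, or 7.45, 6.08 and 8.74 CPM. The groups did not overlap, and library 3 was the highest in each. On the log2 scale Il7r changed by -1.21, with an SE of 0.23 and a 95% interval of -1.72 to -0.70 (adjusted p = 0.013). Some omissions ended the call: the adjusted p was 0.076 if Arid3a-FLAG library 1 was dropped, 0.068 for Arid3a-FLAG library 2 and 0.0504 for LUC library 1. Of 12 lymphoid markers, 11 averaged under 1 CPM, the recombinase gene Rag1 and the lymphoid polymerase Dntt had 0 counts, and the T cell receptor chain Cd3e was at most 0.054 CPM. Of the 3 tested markers, Nkg7 and Lef1 fell (3.87% of all tested genes fell). Lef1 rested on few counts, 2 to 3 with Arid3a-FLAG and 10 to 17 with LUC. The list summed to 4.46 to 5.17 CPM with Arid3a-FLAG and 22.2 to 36.6 CPM with LUC. Most of that sum was Nkg7 alone, a granule gene of cytotoxic lymphocytes, at 3.08 to 3.85 CPM with Arid3a-FLAG and 19.6 to 34.4 CPM with LUC. Their part in the fall of Il7r was not tested.

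Both signalling partners of Il7r fell slightly. Crlf2, the TSLP receptor chain, had 54.8, 62.0 and 71.2 CPM with Arid3a-FLAG and 84.0, 90.2 and 87.8 CPM with LUC (log2 fold change -0.48, SE 0.11, adjusted p = 0.025). Il2rg, the common gamma chain of the interleukin 2, 4, 7 and 9 receptors, had 41.3, 40.4 and 35.7 CPM with Arid3a-FLAG and 48.8, 49.9 and 51.8 CPM with LUC (-0.36, SE 0.10, adjusted p = 0.0492). Both were separated between the groups, but leaving out 1 library ended the call of Crlf2 in 4 of 6 fits and that of Il2rg in 5 of 6 (adjusted p up to 0.134 and 0.192). Il2rg shares 728 of its 2387 exon bases with Gm20489 in the same orientation, which leaves its value uncertain. Transcripts of the ligands Il7 and Tslp averaged under 1 CPM.

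Windows around the start sites of the fallen alpha chains are printed here with that of Epor, which did not pass, because the cells carried an altered GATA factor and an induced ARID factor. They are RefSeq sequences on GRCm38.p6, from 250 bases before to 50 bases after the start site, in the direction of the gene. Both strands were searched for a GATA motif (the letters AGATAA, their variant AGATAG, the form TGATAA and its variant TGATAG), an ETS motif (the letters CCGGAA or the form AGGAAG) and the ARID3A motif (the letters ATTAAA or the form ATCAAA). Capitals mark the matches. Of 32851 promoter windows of this length, 29.8% held the GATA motif, 45.2% the ETS motif and 22.9% the ARID3A motif.
Il3ra, chr14:14346245-14346544, plus strand: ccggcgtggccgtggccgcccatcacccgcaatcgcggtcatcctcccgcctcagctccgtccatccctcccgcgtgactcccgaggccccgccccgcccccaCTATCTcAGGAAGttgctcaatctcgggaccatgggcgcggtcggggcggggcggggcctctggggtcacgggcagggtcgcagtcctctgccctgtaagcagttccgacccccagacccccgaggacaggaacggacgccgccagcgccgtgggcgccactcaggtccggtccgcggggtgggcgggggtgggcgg
Il7r, chr15:9529827-9530126, minus strand: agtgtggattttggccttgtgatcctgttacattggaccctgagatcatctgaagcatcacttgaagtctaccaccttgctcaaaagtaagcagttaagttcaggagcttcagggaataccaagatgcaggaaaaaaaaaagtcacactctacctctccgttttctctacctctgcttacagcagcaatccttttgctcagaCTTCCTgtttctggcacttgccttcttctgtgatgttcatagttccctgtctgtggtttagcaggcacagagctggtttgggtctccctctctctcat
Epor, chr9:21963527-21963826, minus strand: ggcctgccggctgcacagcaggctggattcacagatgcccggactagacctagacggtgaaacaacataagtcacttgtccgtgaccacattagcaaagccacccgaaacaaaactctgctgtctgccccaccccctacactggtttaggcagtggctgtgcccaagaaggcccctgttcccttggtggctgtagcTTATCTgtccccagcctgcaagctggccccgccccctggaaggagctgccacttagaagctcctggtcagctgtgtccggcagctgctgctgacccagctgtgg

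In the Il3ra window a GATA match begins 147 bases before the start site, and an ETS match begins 140 bases before it, with 1 base between them. The Il7r window held 1 ETS match and no GATA match. The Epor window held 1 GATA match, which begins 54 bases before the start site. None of these windows held the ARID3A letters. Windows were read for 7 of the 9 receptor genes, 8 windows in all, since Il1rl1 has 2. A GATA match stood in 6 of them (29.8% of all promoter windows) and an ETS match in 5 (45.2%). An ARID3A match stood in 2 (22.9%), both of Il1rl1. These counts were not tested against those shares. Csf1r and Csf2rb were not analysed here in this way.

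Epor, the erythropoietin receptor, was slightly higher in each Arid3a-FLAG library but did not pass (ENSMUSG00000006235, chromosome 9, 21958897 to 21963506, minus strand). It had 865, 951 and 907 counts with Arid3a-FLAG, or 53.7, 55.2 and 56.9 CPM, and 796, 815 and 908 counts with LUC, or 46.0, 53.3 and 49.0 CPM. The lowest Arid3a-FLAG library stood just above LUC library 2. The log2 fold change was 0.16 (SE 0.09, 95% interval -0.04 to 0.37, adjusted p = 0.301), so its upper bound is a rise of 1.29-fold. Without LUC library 2 it was 0.23 (adjusted p = 0.058). Epor varied less between libraries than any other receptor of the 9, with an SE of 0.09. Erythroid markers moved both ways: of 8 tested, 2 rose, Epb42 and Kel, 1 fell and 5 did not pass. The ligand Epo had 0 counts in all 6 libraries.

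Il1rl1, the interleukin 33 receptor of mast cells and basophils, did not pass the threshold (ENSMUSG00000026069, chromosome 1, 40429570 to 40465415, plus strand). It had 344.2, 283.6 and 354.1 CPM with Arid3a-FLAG and 321.8, 229.3 and 326.9 CPM with LUC. The groups overlapped, and LUC library 2 was the lowest of the 6. The log2 fold change was 0.16 (SE 0.14, 95% interval -0.16 to 0.48, adjusted p = 0.513), and it was 0.03 without LUC library 2. Il1rap, its co-receptor, had 11.4, 11.4 and 12.2 CPM with Arid3a-FLAG and 11.04, 10.3 and 12.0 CPM with LUC (log2 fold change 0.07, SE 0.13, adjusted p = 0.780). Its exons overlap the antisense entry Gm20319, which leaves the value uncertain. Il33, the ligand, had 0 counts throughout.

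Il1rl1 is known for its pair of start sites, from which a membrane receptor and a soluble decoy form are made, and gene counts do not tell these forms apart. Both RefSeq windows are shown, since the upstream one holds the most GATA matches of the 8 windows. Motifs and capitals are as above.
Il1rl1 upstream start, chr1:40429320-40429619, plus strand: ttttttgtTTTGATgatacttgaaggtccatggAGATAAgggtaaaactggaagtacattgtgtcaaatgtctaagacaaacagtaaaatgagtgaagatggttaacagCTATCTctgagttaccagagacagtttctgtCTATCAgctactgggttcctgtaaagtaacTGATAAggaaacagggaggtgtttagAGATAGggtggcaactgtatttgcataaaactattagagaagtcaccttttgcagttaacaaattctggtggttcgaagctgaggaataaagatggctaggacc
Il1rl1 downstream start, chr1:40439379-40439678, plus strand: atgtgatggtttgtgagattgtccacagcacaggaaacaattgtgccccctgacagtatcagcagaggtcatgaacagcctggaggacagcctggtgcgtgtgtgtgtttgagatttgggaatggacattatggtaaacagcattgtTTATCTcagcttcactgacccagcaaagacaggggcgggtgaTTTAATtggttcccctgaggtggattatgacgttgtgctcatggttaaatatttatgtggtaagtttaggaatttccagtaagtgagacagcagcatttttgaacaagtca

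The upstream window held 5 GATA matches, which begin 217, 141, 110, 80 and 54 bases before the start site, and the downstream window held 1. Each also held 1 match to the ARID3A letters. Il1rl1 had 4885 to 5641 counts with Arid3a-FLAG and 3506 to 6056 with LUC.

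Il6ra, the interleukin 6 binding chain, was close to the lower limit of the measurement (ENSMUSG00000027947, chromosome 3, 89864059 to 89913196, minus strand). It had 24, 17 and 29 counts with Arid3a-FLAG and 18, 16 and 24 counts with LUC, or 0.987 to 1.82 CPM and 1.04 to 1.30 CPM. The log2 fold change of 0.33 had the widest interval of the 9, from -0.40 to 1.06 (SE 0.33, adjusted p = 0.560), so these libraries do not exclude a rise of up to 2.09-fold. It shares 242 of its 8642 exon bases with the antisense entry Gm42809, which had at most 1 count. Its signalling partner Il6st, the chain gp130 shared by the interleukin 6 family, rose instead. Il6st had 35.9, 45.5 and 37.1 CPM with Arid3a-FLAG and 25.5, 20.3 and 23.8 CPM with LUC, with no overlap. Its rise was 0.77 in log2 units, with an SE of 0.13 (adjusted p = 0.0072), and the call held in all 6 fits with 1 library left out. The ligand Il6 had 3.73, 4.59 and 8.54 CPM with Arid3a-FLAG and 7.74, 9.02 and 8.20 CPM with LUC, and did not pass (-0.57, SE 0.27, adjusted p = 0.215). Without Arid3a-FLAG library 3, the only library of that group in the range of LUC, Il6 fell by 0.996 on the log2 scale (adjusted p = 0.028).

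Among 37 other cytokine receptor genes drawn up from general knowledge, 29 were tested, of which 2 rose, 3 fell and 24 did not pass, while 3.43% of all tested genes rose and 3.87% fell. Their median log2 fold change was -0.01, against -0.03 over all tested genes. Il6st and Il9r, the interleukin 9 receptor of mast cells and T cells, rose. Il9r had 105.5, 92.4 and 127.4 CPM with Arid3a-FLAG and 72.7, 63.4 and 68.4 CPM with LUC (0.67, SE 0.12, adjusted p = 0.010, and 0.0515 without Arid3a-FLAG library 1). The genes that fell were Crlf2, Il2rg and Il27ra, the interleukin 27 receptor. Il27ra had 40.0, 40.5 and 37.9 CPM with Arid3a-FLAG and 65.5, 51.3 and 56.5 CPM with LUC (-0.55, SE 0.11, adjusted p = 0.015), and its call held in 2 of 6 fits with 1 library left out. The count of falls ran from 0 without Arid3a-FLAG library 1, Arid3a-FLAG library 2 or LUC library 1 to 5 without LUC library 2. It was 1 without Arid3a-FLAG library 3 or LUC library 3, and the rises numbered 1 without Arid3a-FLAG library 1. Of the 10 ligands listed, 3 were tested, with a median log2 fold change of 0.74, and Il34 passed.

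Of 25 JAK, STAT and adaptor genes, all tested, 1 passed, a share near the 7.29% of all tested genes (without adjustment, p was under 0.05 for 5 rises and 3 falls, and DESeq2 called 2 rises). The gene that passed, Ptpn11, the phosphatase SHP2 that acts downstream of many receptors, had 475.2, 487.8 and 468.4 CPM with Arid3a-FLAG and 302.9, 271.3 and 330.8 CPM with LUC. Its log2 fold change was 0.66 (SE 0.10, adjusted p = 0.0044), and the call held in all 6 fits with 1 library left out. The median of the 25 was 0.08. Without LUC library 2, 2 rose and 2 fell, and without LUC library 3, 3 rose. Stat5a and Stat5b, the STAT factors of these receptors, did not pass (log2 fold changes -0.32 and -0.35, adjusted p = 0.074 and 0.1). The libraries of the groups did not overlap for Stat5a and did for Stat5b. They were chosen after their values were seen, and Stat5a overlaps Stat3 on the opposite strand by 72 exon bases.

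A list of 18 STAT5 and cytokine response genes was also drawn up from general knowledge, and Fam132b was not found under that symbol. Of the 17 tested, 1 rose, 1 fell and 15 did not pass, with a median of 0.09. Of all tested genes, 3.43% rose and 3.87% fell. Socs2, a feedback inhibitor that STAT5 induces, fell. It had 42.0, 43.6 and 35.9 CPM with Arid3a-FLAG and 57.0, 61.5 and 56.9 CPM with LUC (-0.53, SE 0.10, adjusted p = 0.014, and no call without Arid3a-FLAG library 1 or 3). Hba-a1, an alpha globin and the gene that rose, was at 96.1 to 140.8 CPM with Arid3a-FLAG and 26.4 to 40.9 CPM with LUC (1.93, SE 0.19, adjusted p = 0.00041), and its near-identical copy Hba-a2 makes the value uncertain. Rises numbered 5 when LUC library 2 was dropped and 3 when LUC library 3 was, and falls numbered 0 when either Arid3a-FLAG library 1 or 3 was dropped and 2 when LUC library 2 was.

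**Figure D4:**
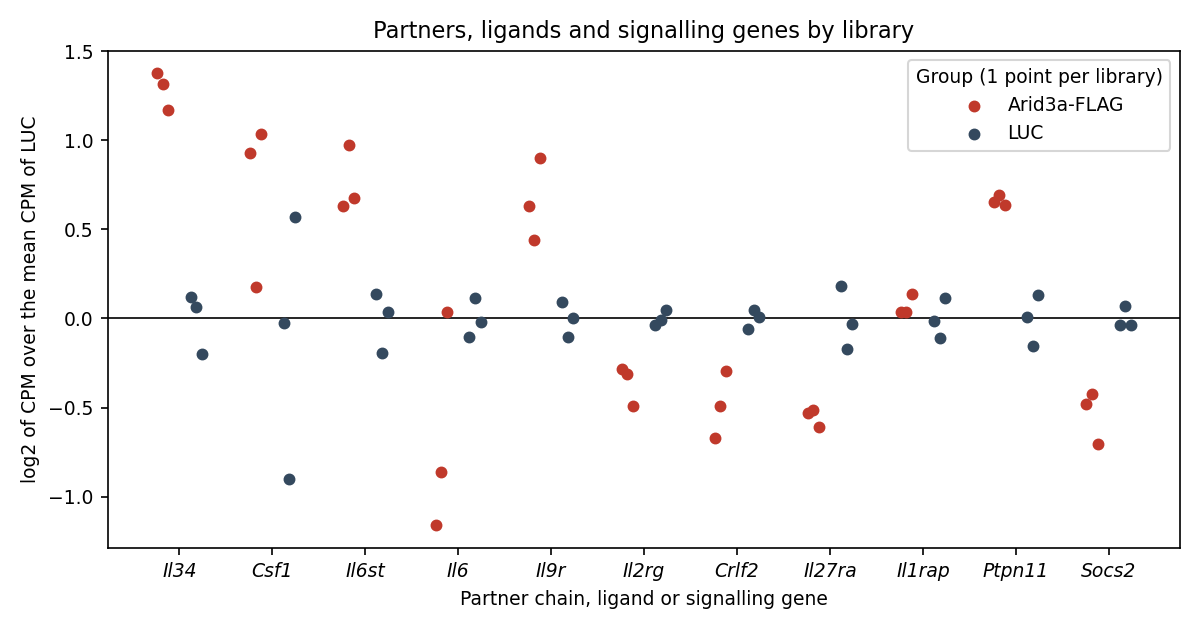
Partner chains, ligands and signalling genes, as log2 of CPM over the mean CPM of the 3 LUC libraries, with 1 point per library. The Arid3a-FLAG points of Il34, Il6st, Il9r and Ptpn11 lie above all LUC points and those of Il2rg, Crlf2, Il27ra and Socs2 below, while Csf1, Il6 and Il1rap did not pass the threshold.

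Among the 4 genes whose profile over the 6 libraries was nearest to that of Csf1r, by the root mean square difference of centred log2 CPM, were Spon2, Tmem158 and Cnr1, at 0.210 to 0.242. Spon2, a secreted matrix protein, had 8.51, 8.65 and 9.29 CPM with Arid3a-FLAG and 2.89, 3.27 and 4.86 CPM with LUC. Cnr1, a cannabinoid receptor, had 82.4 to 88.8 CPM with Arid3a-FLAG and 25.4 to 30.2 CPM with LUC. The genes nearest to Il7r were Ltbp4, Alcam, Trim16 and Aff3, at 0.087 to 0.092. Ltbp4, a latent TGF-beta binding protein, had 6.39, 6.97 and 9.29 CPM with Arid3a-FLAG and 16.5, 13.5 and 18.5 CPM with LUC. Alcam, an adhesion molecule, had 3.48, 3.95 and 5.40 CPM with Arid3a-FLAG and 9.36, 7.85 and 12.0 CPM with LUC. Like Il7r, both were highest in library 3 of each group. Trim16 shares exon bases with Fbxw10, so its value is uncertain. Likeness over 6 libraries in 2 groups rests mostly on the difference between the groups.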

How the data were processed

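RNA was sequenced from 6 samples, 3 per group. The authors deposited gene-level counts, which are whole numbers without normalization. Per the submitters' processing notes, fastp, HISAT2 2.0.5 and featureCounts were used with mm10. No source used here gives their settings, the annotation release or the use of strand. The 53802 entries include 1 construct entry, kept out of library sizes and tests. Symbols, positions and exon lengths came from GENCODE M21 on GRCm38 (mm10). There were 95 identifiers with no match, which took 0.0107% to 0.0170% of the counts of a library.

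The main test was edgeR 4.0.16 in R 4.3.3: filterByExpr defaults, TMM factors, and the quasi-likelihood F test with the group as only term, two-sided, with Benjamini-Hochberg adjustment over 13631 genes. SE is the log2 fold change over the square root of F, and intervals are at 95%. CPM uses TMM-scaled library sizes. Adjusted p-values are from edgeR unless another tool is named. Other settings tried were upper quartile or RLE factors, a filter of 5 CPM in 3 samples or none, DESeq2 1.42.0, limma-voom (limma 3.58.1), a replicate block and each library left out. The fits were tested on simulated data. The receptors, lists and tests were chosen with earlier results of these data known, so no list was tested. Named besides the receptors were their partners, ligands and overlapping genes, list members past the threshold (at most 4 per direction by p), and the 4 nearest profiles of at least 5 CPM to the receptor with the smallest p in each direction. Some genes that this rule names are not reported here.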

Additional observations from a re-analysis of the deposited data

How the results depend on the processing

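The rise of Csf1r and the falls of Il3ra and Il7r kept their direction under all alternatives run, and their calls under each scaling, filter and tool. The receptor counts of 1 higher and 2 lower changed only with a library left out, to 0 to 2 lower and 1 higher. With 1 library left out Csf2ra ran from -0.24 to 0.067, and it changed sign without Arid3a-FLAG library 1 (0.05) and LUC library 1 (0.067). Il6ra had no value under the filter of 5 CPM in 3 samples. Over all genes, 467 were higher and 527 lower, against 869 and 1076 with no filter on low counts and 771 higher and 790 lower with DESeq2. With 1 library left out these counts ran from 115 to 1191 and from 118 to 1095. The summed beta chains ran from 0.02 to 0.37 on the log2 scale, and the difference in Csf2rb2 share from -0.408 percentage points, a change of sign without Arid3a-FLAG library 3, to 0.760. The other receptors gave 1 to 2 rises and 0 to 5 falls, the ligands 1 rise and 0 to 1 falls, the JAK, STAT and adaptor genes 1 to 3 and 0 to 2, and the response genes 1 to 5 and 0 to 2. The causes were not tested, and fits with 1 library left out also hold fewer samples. Same-numbered libraries did not deviate together (r = -0.103, -0.115 and 0.125), so the numbers were not taken as pairs. With the replicate block 410 genes were higher and 530 lower, the receptor calls did not change, 2 ligands and 2 response genes rose, and the summed beta chains gave 0.17. Receptors with few counts, Il6ra above all, limit what these libraries can show.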
